A study of Mus musculus with 12 samples.

Results

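Resident alveolar macrophages were followed through 10 of their marker genes in RNA sequencing of mouse lung. The 10 genes are Marco, Siglecf, Chil3, Ear2, Itgax, Mrc1, Krt79, Pparg, Csf2ra and Csf2rb, chosen by symbol from the 19726 genes of the authors' deposited table, and each was found once. The 12 libraries formed 4 groups of 3. Control mice had no treatment. The AOS group had alginate oligosaccharides, short sugar chains cut from the seaweed polysaccharide alginate, at 10 mg/kg for 5 weeks. The busulfan group had a single dose of 40 mg/kg of busulfan, an alkylating drug that kills dividing cells of the bone marrow. The last group, called busulfan + AOS here, had the same dose of busulfan and afterwards AOS at 10 mg/kg for 5 weeks. The labels give the strain of all groups as IRC, give no age or sex, and do not say whether the 3 libraries of a group came from separate animals, so p-values measure the spread between libraries, which may be technical. RNA of all groups came from lung as a whole sample, so the cells that carried a transcript were not seen.

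Alveolar macrophages live in the airspaces, where they take up inhaled particles and clear surfactant. They arise from fetal monocytes and renew themselves in place, and they depend on granulocyte-macrophage colony-stimulating factor (GM-CSF), which the alveolar epithelium secretes. GM-CSF acts through a receptor made of the products of Csf2ra and Csf2rb and induces the nuclear receptor PPARγ, product of Pparg, which sets the lipid handling of these cells. Transforming growth factor β keeps the same state up. In such RNA, fewer cells of a type and less RNA per cell cannot be told apart.

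Library totals lay between 16209221 and 17168764 estimated counts, and 15863 genes passed the filter on low counts, all 10 markers among them. Sftpc, the surfactant gene of the alveolar epithelium, stood between 10120 and 15440 counts per 1000000 (CPM) in the 12 libraries, and the macrophage genes Lyz2 and Cd68 at 3082 to 4870 and 24.86 to 47.41 CPM. Unless another unit is named, levels are CPM after TMM scaling, with the SD over 3 libraries. Changes are log2 fold changes with their SE, and a gene is said to rise or fall where the adjusted p of edgeR's quasi-likelihood test, over all genes tested, was under 0.05.

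With busulfan the markers were called about as often as any gene. Averaged over mice with and without AOS, 1 of the 10 markers rose, Marco, and 0 fell, against 11.8% of all genes tested that changed in the same comparison (7.02% higher and 4.81% lower). At an unadjusted p under 0.05 there were 3 markers, Marco, Chil3 and Pparg, against 29.2% of all genes, and DESeq2 called 1, Marco, against 16.4% of the genes it tested. The median change of the 10 markers was −0.09, beside −0.01 for all genes tested. In the comparison of busulfan with control 0 of 10 markers changed (1.21% of all genes), with 1 at an unadjusted p under 0.05 (18.7% of all genes) and 0 called by DESeq2 (5.87% of the genes it tested). In that of busulfan + AOS with AOS 0 changed by edgeR (2.30% of all genes), 3 had an unadjusted p under 0.05 (20.5% of all genes), and DESeq2 called 2, Marco and Ear2, where it called 8.05% of the genes it tested.

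Marco encodes a scavenger receptor with a collagen-like stalk that binds bacteria and inhaled particles (GRCm38.p6, chromosome 1, 120474538 to 120505024, minus strand). Control libraries 1, 2 and 3 held 15.72, 19.16 and 13.36 CPM, and the AOS libraries 12.6, 23.26 and 9.972 CPM. The busulfan libraries held 18.89, 43.85 and 30.7 CPM, and the busulfan + AOS libraries 25.54, 41.94 and 45.47 CPM. Of the 6 libraries given busulfan, 5 lay above the highest of the 6 that were not, AOS 2, and busulfan 1 lay just under control 2. Group means were 16.08 ± 2.913, 15.28 ± 7.036, 31.15 ± 12.48 and 37.65 ± 10.63 CPM in control, AOS, busulfan and busulfan + AOS (SD, n = 3 each).

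Averaged over AOS, Marco rose 2.18-fold with busulfan, a log2 fold change of 1.13 (SE 0.26, edgeR adjusted p = 0.0216). The change was 0.95 (SE 0.37, edgeR adjusted p = 0.203) without AOS and 1.30 (SE 0.37, edgeR adjusted p = 0.0827) with it, and the test of the difference between these, an interaction term, gave 0.35 (SE 0.52, edgeR adjusted p = 0.989). Control and busulfan libraries overlapped, and busulfan + AOS and AOS libraries did not. In the 12 fits that each left out 1 library the averaged change ran from 0.96 to 1.35 and stayed past the threshold in 9. The call was lost without control 1 (edgeR adjusted p = 0.0509), AOS 1 (0.0554) or busulfan + AOS 2 (0.0523). Without both replicate 2 libraries given busulfan, an alternative added after the data had been seen, the change was 0.92 (SE 0.28, edgeR adjusted p = 0.0927).

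**Figure D1:**
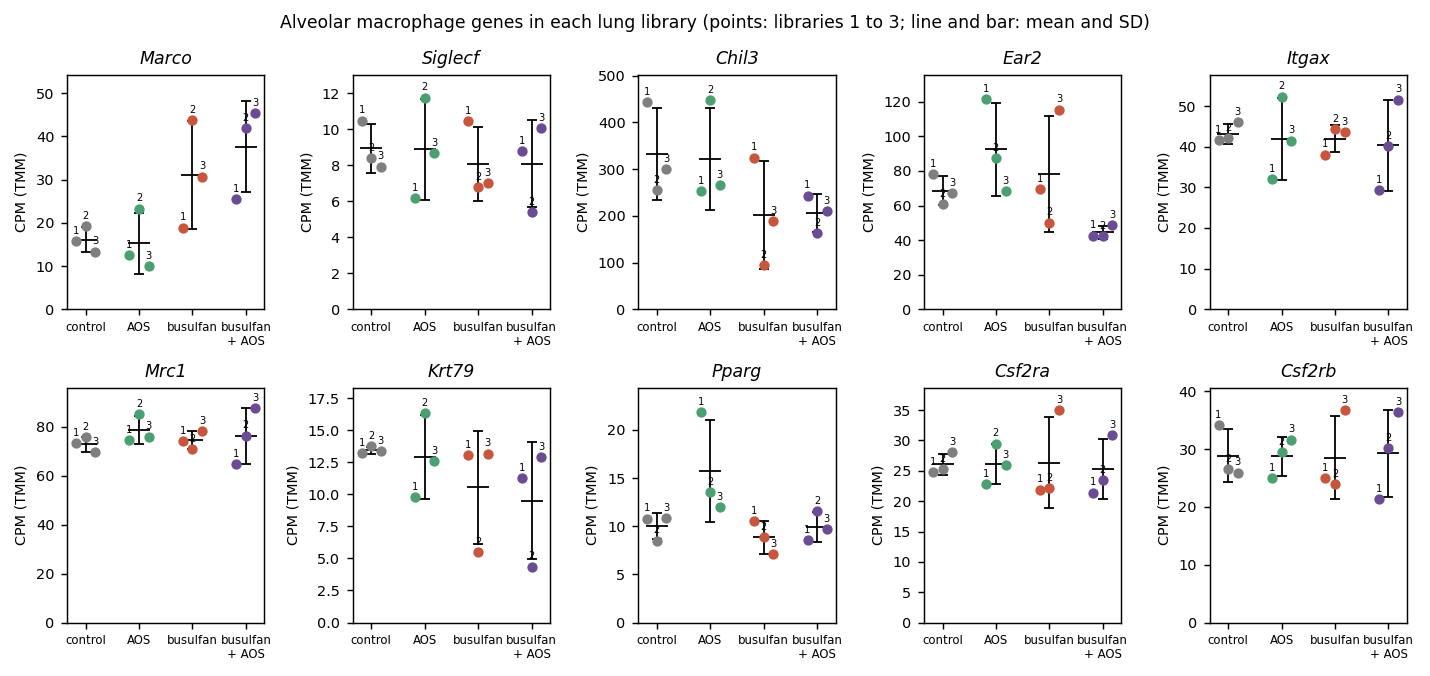
Level of each of the 10 markers in each library in CPM after TMM scaling, on linear axes that start at 0. Points are libraries 1 to 3 of a group, and the line and bar are the mean and SD. Marco stands higher in 5 of 6 libraries given busulfan than in any library without it, Krt79 drops in busulfan 2 and busulfan + AOS 2, and Mrc1 is nearly level.

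Chil3 encodes a chitinase-like protein that alveolar macrophages secrete in quantity (chromosome 3, 106147554 to 106167564, minus strand). Control libraries held 443.2, 255.3 and 299.4 CPM and AOS libraries 252.4, 447.2 and 265.1 CPM. Busulfan libraries held 324.4, 94.8 and 188.4 CPM and busulfan + AOS libraries 243.3, 163.2 and 209.9 CPM. The lowest 5 libraries of the 12 had all been given busulfan, and busulfan 1 held the next highest value after AOS 2 and control 1. Averaged over AOS the change was −0.68 (SE 0.28, 95% interval −1.30 to −0.06, edgeR adjusted p = 0.138), which missed the threshold. Leaving out busulfan 1 brought it to −0.94 (edgeR adjusted p = 0.0412), and it missed in the other 11 such fits. The separate changes were −0.72 (SE 0.40, edgeR adjusted p = 0.362) without AOS and −0.65 (SE 0.40, edgeR adjusted p = 0.391) with it, and in the second the groups did not overlap. Whether cells other than alveolar macrophages carried part of the Chil3 transcripts was not tested.

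The level of Marco relative to Chil3 was high in most libraries given busulfan. For every 100 CPM of Chil3 there were 3.55 to 7.50 CPM of Marco in the 6 libraries without busulfan. With busulfan there were 5.82, 46.3 and 16.3, and with busulfan and AOS 10.5, 25.7 and 21.7. Again 5 of 6 libraries lay above the highest value without the drug, and busulfan 1 lay within the range without it.

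The bases just before the start sites of Marco, the 1 marker called, and Chil3, the most abundant one, are shown for comparison. They are RefSeq sequence of GRCm38.p6, 250 bases each, for Marco chr1:120505025-120505274 and for Chil3 chr3:106167565-106167814, both on the minus strand, written 5′ to 3′ along the gene. Capitals mark GAGGAA, the core motif of PU.1, the transcription factor of macrophage identity, searched on both strands.
Marco: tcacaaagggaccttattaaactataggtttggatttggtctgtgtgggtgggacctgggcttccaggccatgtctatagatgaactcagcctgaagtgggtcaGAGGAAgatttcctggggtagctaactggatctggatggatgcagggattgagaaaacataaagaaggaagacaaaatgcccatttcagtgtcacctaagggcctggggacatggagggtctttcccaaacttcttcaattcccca
Chil3: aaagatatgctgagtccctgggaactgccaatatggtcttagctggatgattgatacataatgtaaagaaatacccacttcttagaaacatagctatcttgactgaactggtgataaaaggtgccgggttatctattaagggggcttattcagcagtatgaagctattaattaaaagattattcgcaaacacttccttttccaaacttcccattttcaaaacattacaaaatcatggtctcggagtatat
The Marco window held 1 match, its first base 146 bases before the start, and the Chil3 window held 0. GAGGAA or its complement stood in 23.3% of 32851 such windows over all genes and in 5 of the 11 windows of the 9 markers with an entry, those of Csf2ra, Marco, Mrc1, Pparg and Siglecf. AGGTCA, the half-site of nuclear receptors such as PPARγ, stood in 14.0% of all windows and in 2 of the 11, both of Pparg. A match is a run of letters and not a shown site of binding.

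Ear2, an eosinophil-associated ribonuclease gene that mouse alveolar macrophages express strongly (chromosome 14, 44102654 to 44103531, plus strand), was lowest where both treatments met. Control libraries held 78.01, 60.98 and 67 CPM and AOS libraries 121.7, 87.63 and 68.33 CPM. Busulfan libraries held 69.64, 50.18 and 115.5 CPM and busulfan + AOS libraries 42.57, 42.3 and 48.83 CPM. All 3 libraries with both treatments lay below each of the other 9, and the other groups overlapped each other. The change was −1.05 between busulfan + AOS and AOS (SE 0.28, 95% interval −1.68 to −0.43, edgeR adjusted p = 0.072, DESeq2 adjusted p = 0.00438). It was 0.19 between busulfan and control (SE 0.28, 95% interval −0.42 to 0.80, edgeR adjusted p = 0.758). The interaction term was −1.25 (SE 0.39, unadjusted p = 0.00952, edgeR adjusted p = 0.989), so a difference between these changes did not pass the threshold over all genes. Without busulfan 3, the change between busulfan + AOS and AOS was −1.06 (edgeR adjusted p = 0.0303), and the one averaged over AOS went from −0.43 (edgeR adjusted p = 0.174) to −0.63 (0.0412). Each passed the threshold in only that 1 of 12 fits that left out a library. They ran from −1.24 to −0.82 (edgeR adjusted p up to 0.219) and from −0.63 to −0.31 (up to 0.33). Busulfan 3 is in neither group of the first comparison, where the change itself hardly moved.

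The counts of Ear2 may be shared out with near copies. Its coding sequence was 95.7% identical to that of Ear1 and 97.0% to that of Ear10, with identical runs of up to 96 and 185 bases, and 88.2% identical to that of Ear6. Estimated counts of Ear2 were fractional in 6 of 12 libraries. The first 150 coding bases of the 3 closest, from the GENCODE annotation of GRCm38, show how few bases separate them, with capitals where a copy differs from Ear2.
Ear2: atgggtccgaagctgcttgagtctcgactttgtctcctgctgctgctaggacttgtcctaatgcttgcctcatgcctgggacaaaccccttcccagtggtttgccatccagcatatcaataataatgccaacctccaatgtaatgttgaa
Ear1: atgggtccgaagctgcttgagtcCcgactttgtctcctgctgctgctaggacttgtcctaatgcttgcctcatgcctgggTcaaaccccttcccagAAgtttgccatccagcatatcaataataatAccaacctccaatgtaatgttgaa
Ear10: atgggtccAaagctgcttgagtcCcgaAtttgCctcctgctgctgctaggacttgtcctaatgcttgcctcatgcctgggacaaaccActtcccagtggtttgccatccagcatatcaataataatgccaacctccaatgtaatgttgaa
Ear1 and Ear10 each differ from Ear2 at 5 of these 150 bases.

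The split between Ear2 and Ear1 was uneven in 2 libraries. Ear1 made up 10.4% of the sum of both in AOS 1 and 10.9% in busulfan 3, and 28.0 to 33.7% in the other 10. The same 2 libraries held 2.62 and 1.96 CPM of Ear6, and the other 10 at most 0.179 CPM. These are the libraries with the highest Ear2 values. Summing the counts of Ear1, Ear2, Ear6 and Ear10, an alternative added after the data had been seen, gives values that do not depend on the split among these 4. Sharing of counts with genes beyond these was not checked. The sums were 128.6, 102 and 102.5 CPM in controls and 155.7, 149.1 and 108.9 CPM with AOS. They were 105.5, 78.33 and 141.2 CPM with busulfan and 66.93, 65.89 and 76.15 CPM with busulfan + AOS, where all 3 libraries again lay under the other 9.

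As a sum, the Ear genes fell between AOS and busulfan + AOS by 0.99 on the log2 scale (SE 0.20, edgeR adjusted p = 0.0376). Averaged over AOS they fell by 0.51 (SE 0.14, edgeR adjusted p = 0.0432). Between control and busulfan the sum differed by −0.03 (edgeR adjusted p = 0.947). Ear2 made up 58.8 to 81.7% of the sum and Ear10 is part of it, so the sum is not separate support for either gene. Fits of the sum that left out a library are not given here, so how far its calls rest on single libraries was not shown. Ear10, whose reads may be shared out in the same way, had on its own 3.726 to 5.532 CPM in busulfan + AOS, 6.062 to 9.75 CPM in busulfan and 7.725 to 17.47 CPM in the 6 libraries without busulfan. Against control it differed by −0.53 with busulfan alone (SE 0.33, edgeR adjusted p = 0.416), with overlap, and the interaction term was −1.19 (SE 0.46, unadjusted p = 0.0272, edgeR adjusted p = 0.989). It fell by 1.72 between AOS and busulfan + AOS (SE 0.34, edgeR adjusted p = 0.0318, without overlap) and by 1.12 averaged over AOS (SE 0.23, edgeR adjusted p = 0.0144). The averaged call of Ear10 held in all 12 fits that left out a library. The one against AOS held in 8, and was lost without AOS 1 (edgeR adjusted p = 0.107), AOS 2 (0.111), busulfan + AOS 1 (0.102) or busulfan + AOS 2 (0.126). Summed eosinophil genes, mostly Alox15 and with Ear6 among them, stood at 3.23 to 6.01 CPM with busulfan + AOS. That overlapped the controls, at 3.73 to 81.7 CPM, and lay under 14.1 to 34.8 CPM with AOS and 7.23 to 132 CPM with busulfan. Alox15 differed by −2.52 between busulfan + AOS and AOS (SE 1.34, edgeR adjusted p = 0.321) and by −3.67 between busulfan + AOS and busulfan (SE 1.38, unadjusted p = 0.0229, edgeR adjusted p = 0.769), both without overlap. The defining eosinophil gene Epx was at or below 0.06024 CPM in every library. The part of eosinophils in the level of the Ear genes was not tested.

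**Figure D2:**
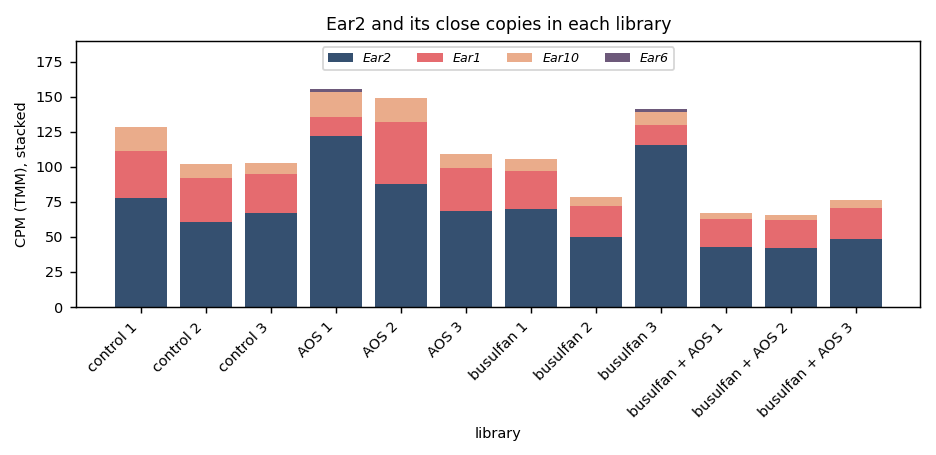
Stacked CPM of Ear2 and its close copies Ear1, Ear10 and Ear6 in each library, on a linear axis from 0. The 3 busulfan + AOS bars, at 65.89 to 76.15 CPM, are the lowest of the 12, and Ear1 takes a smaller share in AOS 1 and busulfan 3 than elsewhere.

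Mrc1, the mannose receptor (chromosome 2, 14229414 to 14332023), was the steadiest of the 10, with an SD of log2 CPM over all 12 libraries of 0.118. Its control libraries held 73.19, 75.84 and 69.78 CPM and its busulfan libraries 74.13, 70.99 and 78.25 CPM, and all 12 lay between 64.61 and 87.58 CPM. The change averaged over AOS was −0.01 (SE 0.07, 95% interval −0.16 to 0.15). Mrc1 is also expressed by lymphatic endothelium. Of 6 lymphatic and sinusoidal endothelial genes 1 rose in the average over AOS, Lyve1, and 0 fell, against 7.02% and 4.81% of all genes. Of the 6 changes 4 were positive and 2 negative, with a median of 0.09. Lyve1 rose by 0.74 (edgeR adjusted p = 0.0415, SE 0.20). That call was kept in 1 of 12 fits that left out a library, the one without busulfan + AOS 3. In the other 11 the edgeR adjusted p was up to 0.0927. The summed level of the 6 lymphatic and sinusoidal endothelial genes listed ran from 364 to 538 CPM in control, 257 to 317 CPM in AOS, 559 to 789 CPM in busulfan and 311 to 577 CPM in busulfan + AOS libraries. The part of such cells in the level of Mrc1 was not tested.

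Itgax, the CD11c integrin chain shared with dendritic cells (chromosome 7, 128129526 to 128150657), held 41.57, 42.09 and 46.07 CPM in controls and 38.08, 44.33 and 43.63 CPM with busulfan. With AOS it held 32.04, 52.33 and 41.48 CPM, and with both 29.3, 40.08 and 51.6 CPM. The 4 groups overlapped throughout, and the change with busulfan averaged over AOS was −0.05 (SE 0.14, 95% interval −0.37 to 0.27). Of 10 dendritic cell genes 0 rose and 1 fell in that average, against 7.02% and 4.81% of all genes. Of the 10 changes 2 were positive and 8 negative, with a median of −0.30. The gene called was Ccr7, the receptor that guides dendritic cells to lymph nodes, which fell by 1.27 (SE 0.22, edgeR adjusted p = 0.00688). The part of other cells in the fall of Ccr7 was not tested.

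Siglecf, a sialic acid-binding receptor that alveolar macrophages share with eosinophils (chromosome 7, 43351341 to 43359475), had the lowest level per length of the 10. It held 10.48, 8.393 and 7.924 CPM in controls and 6.182, 11.75 and 8.687 CPM with AOS. It held 10.46, 6.802 and 6.986 CPM with busulfan and 8.765, 5.384 and 10.07 CPM with both. The groups overlapped, with a change of −0.14 (SE 0.20, 95% interval −0.59 to 0.31) averaged over AOS. The defining eosinophil genes Epx and Prg2 were at or below 0.06024 and 0.4282 CPM in every library. Of 6 eosinophil genes 2 passed the filter and 0 of those changed by edgeR in the average (11.8% of all genes). Of the 2, 0 had an unadjusted p under 0.05 (29.2% of all genes) and DESeq2 called 0 (16.4% of the genes it tested). The summed level of the 6 ran from 3.73 to 81.7 CPM in controls, 14.1 to 34.8 CPM with AOS, 7.23 to 132 CPM with busulfan and 3.23 to 6.01 CPM with both, where it overlapped the controls and lay under the AOS and busulfan groups. Most of that was Alox15, at 79.73 CPM in control 2, 128.9 CPM in busulfan 3 and 2.453 to 4.884 CPM with both, an enzyme gene that some tissue macrophages express too.

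Neither GM-CSF receptor gene passed the test. Csf2ra, the ligand-binding chain (chromosome 19, 61217191 to 61228461), held 24.82, 25.3 and 28.02 CPM in controls and 21.9, 22.17 and 35 CPM with busulfan. It held 22.83, 29.47 and 26 CPM with AOS and 21.42, 23.5 and 30.92 CPM with both, and all 4 groups overlapped. Its change averaged over AOS was −0.01 (SE 0.14, 95% interval −0.32 to 0.29). Estimated counts of Csf2ra were fractional in 8 of 12 libraries, and with which genes its reads may be shared was not checked. Csf2rb, the signalling chain shared with the receptors of interleukins 3 and 5 (chromosome 15, 78325800 to 78351001), held 34.14, 26.53 and 25.96 CPM in controls and 24.94, 23.97 and 36.76 CPM with busulfan. It held 25.03, 29.53 and 31.65 CPM with AOS and 21.39, 30.17 and 36.37 CPM with both, again with overlap, and its averaged change was 0.01 (SE 0.15, 95% interval −0.33 to 0.34). Busulfan 3 was the highest library of both receptor genes and busulfan + AOS 1 the lowest. Csf2rb has a near copy, Csf2rb2, with 95.2% of coding bases identical, and its estimated counts were fractional in all 12 libraries. It took 69.0 to 75.7% of the 2 genes' sum, so the share was even across libraries, and summed with its copy it changed by −0.02 (SE 0.14) in the average.

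Of 15 tested genes for GM-CSF itself and its signalling, 1 rose and 1 fell in the average over AOS, with a median of −0.01, against 11.8% of all genes called. The ligand gene Csf2 was scarce, with 0.9036 to 2.302 CPM in the 6 libraries without busulfan and 2.154 to 3.186 CPM in the 6 with it, and rose by 0.81 (SE 0.21, edgeR adjusted p = 0.0315). That call was kept in 5 of 12 fits that left out a library. It was lost without control 1, control 2, AOS 1, AOS 3, busulfan 1, busulfan 3 or busulfan + AOS 3 (edgeR adjusted p = 0.0527 to 0.0754). Stat5a, a transcription factor that GM-CSF signalling activates and that many cells express, fell by 0.50 (SE 0.10, edgeR adjusted p = 0.014), a call kept in all 12. Its levels were 12.61 to 17.42 CPM without busulfan and 9.519 to 14.65 CPM with it.

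Pparg, the nuclear receptor gene (chromosome 6, 115360879 to 115490404), was highest in the AOS group. AOS libraries held 21.82, 13.51 and 11.99 CPM and control libraries 10.78, 8.514 and 10.82 CPM. Busulfan libraries held 10.52, 8.866 and 7.108 CPM and busulfan + AOS libraries 8.515, 11.55 and 9.718 CPM. The 3 AOS libraries were the highest of the 12, and AOS 1 stood well above the rest. The change between AOS and control was 0.65 (SE 0.23, unadjusted p = 0.0183, edgeR adjusted p = 0.999), and without AOS 1 it was 0.35. That between busulfan + AOS and AOS was −0.67 (SE 0.23, edgeR adjusted p = 0.143), and −0.37 without AOS 1 (edgeR adjusted p = 0.40). These 2 comparisons share the AOS libraries.

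Fat cells also express Pparg, and their markers were highest in AOS 1 and AOS 2, the libraries with the most Pparg. Elsewhere the order differed. Control 1, with 38.0 CPM of fat cell transcripts, held 10.78 CPM of Pparg, and busulfan + AOS 2, with 9.45 CPM, held 11.55 CPM. The summed level of 8 fat cell genes was 639 CPM in AOS 1, 103 CPM in AOS 2 and 23.6 CPM in AOS 3, and 7.11 to 38.0 CPM in the other 9 libraries. Adipoq, the fat cell hormone adiponectin, stood at 121.7, 17.14 and 2.508 CPM in AOS 1, 2 and 3, at 0 to 3.012 CPM in the other 9. The lipid droplet gene Plin1 stood at 38.16 CPM in AOS 1. The part of fat cells in the level of Pparg was not tested. Averaged over AOS the change of Pparg with busulfan was −0.43 (SE 0.17, edgeR adjusted p = 0.119).

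**Figure D3:**
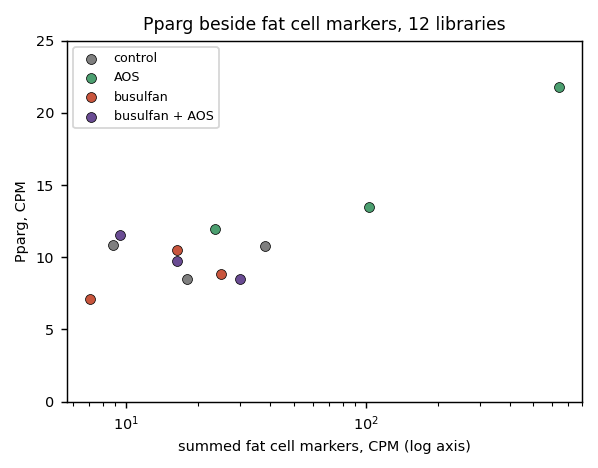
Pparg in CPM, on a linear axis from 0, against the summed CPM of 8 fat cell genes on a log axis, 1 point per library. The AOS libraries with 639 and 103 CPM of fat cell transcripts hold 21.82 and 13.51 CPM of Pparg, and the other 10 hold 7.108 to 11.99 CPM.

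Of 15 partners and lipid targets of PPARγ, 2 rose and 1 fell with busulfan averaged over AOS, with a median of 0.10, against 7.02% and 4.81% of all genes. Nr1h3, the oxysterol receptor LXRα, stood at 34.42 to 42.28 CPM without busulfan and 41.89 to 48.76 CPM with it. It rose by 0.25 (edgeR adjusted p = 0.0139, SE 0.05), a call kept in all 12 fits that left out a library. The cholesterol exporter gene Abcg1 rose by 0.31 (edgeR adjusted p = 0.032, SE 0.08) and the fatty acid receptor gene Cd36, abundant in lung capillaries, fell by 0.23 (SE 0.06, edgeR adjusted p = 0.0344). Each of those 2 calls was kept in 3 of the 12, without AOS 2, busulfan 2 or busulfan + AOS 1 for Abcg1 and without AOS 3, busulfan 3 or busulfan + AOS 2 for Cd36, with an edgeR adjusted p of up to 0.079 in the others. With upper-quartile scaling Abcg1 changed by 0.26 (edgeR adjusted p = 0.0516). Lpl, Fabp4 and Cidec, which fat cells share, had their highest values in AOS 1, at 320.1, 358.3 and 76.5 CPM.

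Krt79, a keratin gene known among lung cells as a marker of alveolar macrophages (chromosome 15, 101929332 to 101940324), was low in 2 libraries. Controls held 13.19, 13.74 and 13.36 CPM and AOS libraries 9.808, 16.35 and 12.6 CPM. Busulfan libraries held 13.03, 5.466 and 13.17 CPM and busulfan + AOS libraries 11.27, 4.367 and 12.9 CPM. Library 2 of each busulfan group was the low one, the other 4 lay within the range of the libraries without the drug, and busulfan lay wholly but barely under control. The change between busulfan and control was −0.35 (SE 0.40, edgeR adjusted p = 0.689), and averaged over AOS −0.39 (SE 0.28, edgeR adjusted p = 0.379). Without both of those libraries the averaged change was −0.07 (SE 0.14). Keratins of skin, where Krt79 is also expressed, were scarce, with 3 of 8 listed genes past the filter and sums of 2.57 to 7.01 CPM.

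Those 2 libraries were low in other markers as well. Busulfan 2 and busulfan + AOS 2 were the lowest 2 of the 12 for Chil3 and Krt79, and busulfan + AOS 2 was the lowest for Siglecf and Ear2. For Marco the same 2, with 43.85 and 41.94 CPM, were the highest after busulfan + AOS 3. Relative to the control mean, Chil3 stood at −1.77 and −0.99, Krt79 at −1.29 and −1.61, and Marco at 1.46 and 1.40 on the log2 scale. Mrc1, at −0.04 and 0.07, and Itgax, at 0.04 and −0.11, stayed close to it.

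**Figure D4:**
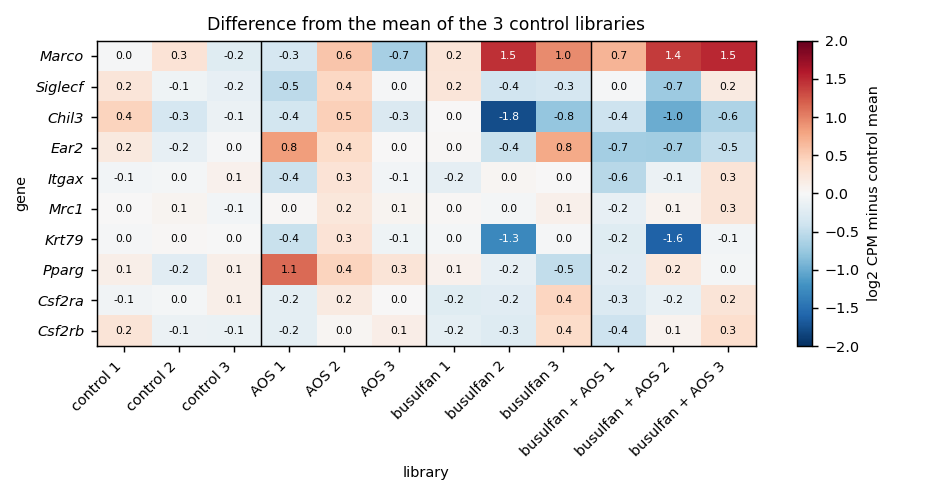
Log2 CPM of each marker in each library minus the mean of the 3 control libraries, printed in each cell (red above, blue below). Marco is 0.25 to 1.51 above the control mean in the 6 libraries given busulfan, and the deepest blue cells are Chil3 in busulfan 2 and Krt79 in busulfan 2 and busulfan + AOS 2.

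The markers whose groups did not overlap are counted here beside the share over all genes. Busulfan and control libraries did not overlap for 1 of 10 markers, Krt79, lower, against 23.2% of all genes (11.4% lower). Busulfan + AOS and AOS libraries did not overlap for 4 of 10, Marco upward and Chil3, Ear2 and Pparg downward, against 27.3% of all genes (14.5% upward and 12.8% downward). For AOS against control it was 1 marker, Pparg, higher, against 9.53% (4.76% higher), and for busulfan + AOS against busulfan 1, Ear2, lower, against 10.2% (5.55% lower). In the average over AOS 0 of 10 were without overlap, against 6.54%.

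**Figure D5:**
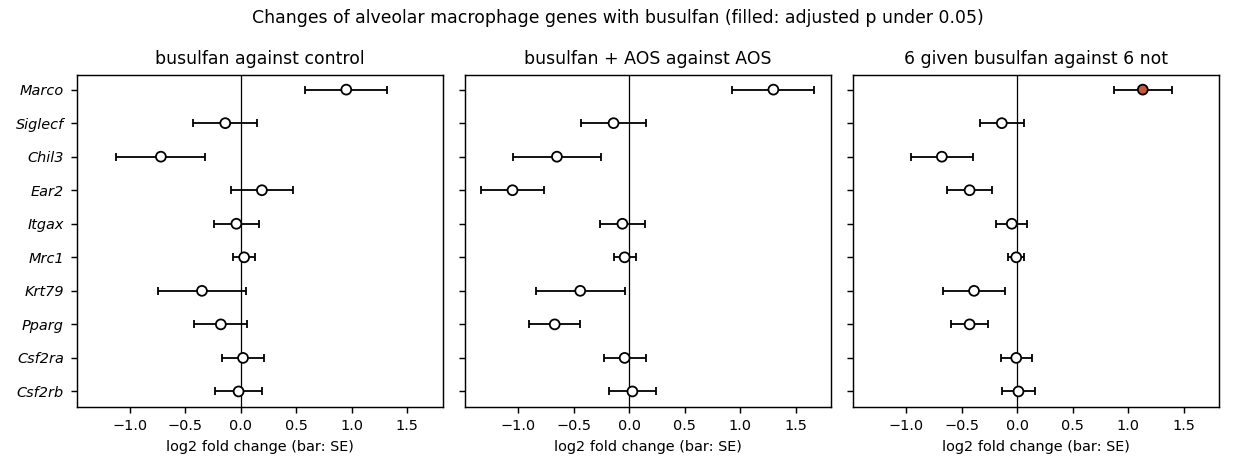
Log2 fold changes of the 10 markers with busulfan in mice without AOS (left), in mice with AOS (middle) and averaged over both (right), with bars of 1 SE. The filled point marks the call at an adjusted p under 0.05, Marco at 1.13 in the average, and 4 markers, Itgax, Mrc1, Csf2ra and Csf2rb, lie within 0.06 of 0 in all 3 panels.

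AOS on its own changed 0 of 10 markers by edgeR, as of all genes tested (0.00%), with 1 marker, Pparg, at an unadjusted p under 0.05 (4.05% of all genes) and 0 called by DESeq2, which called 0.0611% of its genes. The 9 markers other than Pparg changed by −0.07 to 0.43, Ear2 being the highest. Added after busulfan, AOS changed 0 of 10 by edgeR (0.00% of all genes), with 1 at an unadjusted p under 0.05, Ear2 (6.34% of all genes), and 0 by DESeq2 (0.175% of its genes). Ear2 differed by −0.81 there (SE 0.28, edgeR adjusted p = 0.769), without overlap of the groups. Marco differed by 0.27 (SE 0.36, 95% interval −0.52 to 1.07) and Chil3 by 0.02 (SE 0.40, 95% interval −0.86 to 0.90). Averaged over busulfan, AOS changed 0 of 10 (0.00% of all genes) with 1 at an unadjusted p under 0.05, Pparg (5.34% of all genes), and 0 by DESeq2 (0.0707% of its genes). The interaction was called for 0 of 10 (0.00% of all genes) with 1 at an unadjusted p under 0.05, Ear2 (4.79% of all genes), and 0 by DESeq2 (0.0917% of its genes).

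Levels between the genes can be set side by side in the authors' FPKM, which are per length. Over the 12 libraries Chil3 averaged 190 ± 76.4 FPKM and Ear2 123 ± 46.0 FPKM (SD, n = 12), at or above 98.3% and 97.4% of the genes. Every library of Ear2 lay above every library of the next gene, Csf2ra at 15.2 ± 2.72 FPKM, while Chil3 exceeded Ear2 in 9 of 12 libraries. Csf2ra exceeded Mrc1, at 14.6 FPKM, in 7 of 12 libraries, and these 2 did not differ beyond their spread. Marco averaged 13.5 FPKM, but its place turned with the group. In controls it stood at 8.84 ± 1.60 FPKM, under Csf2ra at 16.0 ± 1.06, Mrc1 at 14.3 ± 0.637 and Itgax at 11.3 ± 0.635 FPKM (SD, n = 3 each). In busulfan + AOS it stood at 20.1 ± 5.92 FPKM, above Csf2ra at 14.4 ± 3.40 and Mrc1 at 14.5 ± 2.37 FPKM (SD, n = 3 each). Itgax followed at 10.8, Csf2rb at 7.11, Pparg at 6.43, Krt79 at 5.93 and Siglecf at 3.57 ± 0.834 FPKM. Itgax exceeded Csf2rb in 12 of 12 libraries though their ranges met, and Pparg exceeded Krt79 in 4.

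Correlations of the markers within groups are given as a description over the 12 libraries, which share their depth and scaling. Of 45 pairs, 31 had a positive Pearson r of deviations from the group means, 10 had one over 0.6, and the median was 0.24. Pairs of other genes were not counted in this way, so these numbers have no share to be set against. Itgax and Mrc1 reached 0.82, Csf2ra and Csf2rb 0.77, Mrc1 and Csf2rb 0.76, Siglecf and Krt79 0.77, Siglecf and Chil3 0.74, and Chil3 and Krt79 0.71. These high values joined Itgax and Mrc1, Mrc1 and the GM-CSF receptor genes, and Siglecf, Chil3 and Krt79. They rested in part on few libraries. Without the 2 libraries where the first-named gene lay farthest from its median, they were, in the same order, 0.69, 0.52, 0.51, 0.65, 0.72 and 0.57. Pparg had its lowest value, −0.46, with Csf2ra. Marco went with Itgax (0.66) and Mrc1 (0.58).

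The mean z score of the 10 markers was highest in AOS 2 (0.96) and lowest in busulfan + AOS 1 (−0.82). Of 12150 genes with a mean of at least 5 CPM, the 5 with a pattern most like that mean were Naip5, a sensor of bacterial flagellin, at r = 0.90, Tnfrsf1b, a tumour necrosis factor receptor, at 0.87, Cybb, the phagocyte oxidase chain, at 0.84, Neu1, a lysosomal sialidase, at 0.84, and Zfp398 at 0.84. Leaving out the 2 libraries farthest from the median left r at 0.84, 0.81, 0.74, 0.67 and 0.79. The genes most like Marco alone, a list added after the data had been seen, were Serpinb6b (0.93), Dok4 (0.90), the chemokine gene Ccl6 (0.90), Lox (0.90) and Mal (0.89). Both lists hold the highest of 12150 values over 12 libraries, and a search of that size gives high r among unrelated genes too. They used levels in all 4 groups, not deviations from the group means, so differences between groups enter them.

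Other genes known from alveolar macrophages were counted next. Of 23 tested, 2 rose and 1 fell with busulfan averaged over AOS, with a median of 0.10, against 7.02% higher and 4.81% lower over all genes, and DESeq2 called 3 and 3 (16.4% of the genes it tested). Those that rose were Abcg1 and Car4, a carbonic anhydrase gene that a subset of lung capillary cells also expresses. Car4 stood at 155 to 214.7 CPM in the 6 libraries without busulfan and 226.6 to 290.5 CPM in the 6 with it, without overlap, and rose by 0.43 (SE 0.08, edgeR adjusted p = 0.0104). The gene that fell was Ear10. Atp6v0d2, a subunit of the lysosomal proton pump, stood at 28.47 to 52.24 CPM and differed by 0.21 (SE 0.13). Chil4, a near copy of Chil3 with 95.4% of coding bases identical, did not pass the filter and reached 3.365 CPM at most, in AOS 3.

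Markers of other cells were set beside these. Over all genes tested 11.8% changed by edgeR with busulfan averaged over AOS (7.02% higher and 4.81% lower). An unadjusted p under 0.05 was reached by 29.2%, and DESeq2 called 16.4% of the genes it tested. Of 10 genes of leukocytes and macrophages at large 0 changed by edgeR in the average over AOS, with 1 at an unadjusted p under 0.05, Ptprc, at −0.49 (SE 0.15, edgeR adjusted p = 0.0576), which DESeq2 called. Of 15 interstitial macrophage and monocyte genes 0 changed by edgeR and 0 by DESeq2, with 2 at an unadjusted p under 0.05. Of 7 genes of the transforming growth factor β axis 0 changed by edgeR and 1 by DESeq2, with 1 at an unadjusted p under 0.05. Of 7 neutrophil, 5 T cell, 7 fat cell and 3 keratinocyte genes tested 0 changed by edgeR or DESeq2, with 0, 1, 4 and 0 at an unadjusted p under 0.05. Of 7 genes of the lung's epithelium and endothelium 2 rose, Ager and Pecam1, by 0.24 each (edgeR adjusted p = 0.0114 and 0.0429). The call of Ager was kept in all 12 fits that left out a library and that of Pecam1 in 2, without busulfan 2 or busulfan + AOS 3, with an edgeR adjusted p of up to 0.0995 in the others. Among B cell genes 5 of 5 fell, by 1.48 to 1.84, and their summed level went from 79.9 to 183 CPM in the 6 libraries without busulfan to 23.2 to 59.1 CPM in the 6 with it. The part of B cells in any marker's change was not tested. In the separate comparisons, the 7 neutrophil changes were all negative between busulfan and control (median −0.72). They were all positive between busulfan + AOS and AOS (median 0.58). By edgeR 0 of them were called in either (1.21% and 2.30% of all genes). In the second comparison edgeR called 0 fat cell genes, and DESeq2 called 4 as lower, Adipoq, Plin1, Lep and Cfd (8.05% of the genes it tested).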

How the data were processed

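Total RNA of mouse lung was sequenced in 12 libraries, 3 per group, grouped by their titles. The titles name lung, where the tissue field has "Cells". The titles write BA0 for the group that the design text calls B0. The authors' deposited table gives estimated counts per gene, rounded here to whole numbers, of which 75.9 to 77.1% were whole before, and FPKM made by the authors, a unit inferred because count over library total and 1 length per gene gives each value (median coefficient of variation of that length 0.66% over 9209 genes). The submitters' processing notes name mm10 as the build. The sources used here give no aligner, counting program or strand setting.

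Counts were filtered with filterByExpr, scaled by TMM and fitted with 1 mean per group over 12 libraries in edgeR 4.0.16 (R 4.3.3, common biological coefficient of variation 0.229), with Benjamini-Hochberg adjustment. SEs came from the F statistic, and intervals from a t quantile at the fit's total degrees of freedom. The fit was tested on simulated data. A count of 3, the limit that 0 counts allow, equals 0.177 to 0.188 CPM after TMM scaling, counting error only. The alternatives were DESeq2 1.42.0, other scaling factors, no filter, a replicate block, fits of 2 groups and leaving out each library. The alternatives without both replicate 2 libraries given busulfan, with the Ear genes summed and with Csf2rb and Csf2rb2 summed were chosen after seeing the data. Replicates were compared, and 0 pairs were identical. Markers, lists and tests were chosen with earlier results of these data known. Named were the 10 markers, up to 4 called genes per list, defining markers of other cells, 5 genes most like the markers' mean, and close paralogs. Other genes, namely Alox15, Atp6v0d2, Cd68, Cidec, Csf2, Fabp4, Lpl, Lyz2, Ptprc and the genes most like Marco, were chosen after their values were seen. Sequences and positions are RefSeq's for GRCm38.p6, and the coding bases GENCODE's.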

Additional observations from a re-analysis of the deposited data

How the results depend on the processing

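Leaving out 1 library in turn, the count of all genes called ran from 35 to 230 for busulfan against control (192 with all libraries), 42 to 492 for busulfan + AOS against AOS (365), 1079 to 1667 averaged over AOS (1877), 0 to 1 for AOS against control, 0 to 1 averaged over busulfan, 0 to 1 for the interaction and 0 to 0 for busulfan + AOS against busulfan. Markers called ran from 0 to 1 for busulfan + AOS against AOS (Ear2, without busulfan 3), 0 to 2 averaged over AOS, and stayed at 0 elsewhere. DESeq2 called 973, 1243, 12, 31, 12 and 18 genes for busulfan against control, busulfan + AOS against AOS, AOS against control, busulfan + AOS against busulfan, AOS averaged over busulfan, and the interaction, and 2 markers in the second of these. Fits of only the groups compared called 13 and 191 genes in the first 2. Without both replicate 2 libraries given busulfan 0 markers were called averaged over AOS, and of the other listed calls there Ear10 (edgeR adjusted p = 0.0735), Stat5a (0.0551), Nr1h3 (0.0593), Abcg1 (0.0742), Cd36 (0.0781) and Lyve1 (0.147) were lost, as were Csf2 (0.0721) and Pecam1 (0.0506). Upper-quartile scaling, which moved the median of all genes by at most 0.05, turned the split of higher to lower calls from 116 to 76 into 83 to 95, from 247 to 118 into 199 to 198, and from 1114 to 763 into 767 to 1092, for busulfan against control, against AOS and averaged. Marco's averaged change was 1.09 there (edgeR adjusted p = 0.026).

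A change smaller than its SE in both fits was given no direction, which sets aside 143 changes of sign. Of the others, 3 reversed when 1 library was left out, and the cause was not tested. Chil3 averaged over busulfan ran from −0.19 to 0.24 (−0.01 with all libraries), 0.24 without busulfan 1. Csf2ra ran from −0.24 to 0.14 against control (0.02), −0.24 without busulfan 3, and from −0.24 to 0.20 for busulfan + AOS against busulfan (−0.06), 0.20 without busulfan 3.

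Replicate numbers gave no sign of a pairing: same-numbered libraries deviated from their group means with r from −0.228 to 0.153, over 0.1 in 2 of 18 pairs. Between differently numbered libraries r ran from −0.282 to 0.256, over 0.1 in 12 of 36 pairs. With 3 libraries per group a weak pairing could go unseen. With the replicate block 55 genes were called for busulfan against control, 163 for busulfan + AOS against AOS and 1351 averaged over AOS, where Marco changed by 1.12 (edgeR adjusted p = 0.0147), and the number of markers called was as without it in each comparison. Genes under 3 counts in a library lie under what this depth detects.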
